A study of Mus musculus with 3 samples.

Results

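The data described here are 37 open regions that stand close together in 9 stretches of the mouse genome and were listed in fat cells from all 3 depots studied. They were found by DNase-seq, in which the enzyme DNase I cuts the exposed DNA of nuclei and sequencing of the cut ends gives tags that pile up over open chromatin. Overlapping or touching sites of the 3 deposited lists were merged into 99297 regions, of which 25009 were held by all 3 lists and are called common regions here. Common regions on the same chromosome were joined into a chain wherever the gap to the next was 5 kb or less. The members are the regions in chains of 4 or more, here called dense chains: 37 of 25009 common regions (0.148%), against 24972 common regions in no such chain. The members were chosen by the positions of the listed sites, so their presence in all lists and their close spacing follow from the choice. Tag counts were not used to choose them, except as far as they decided which sites the authors listed.

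Brown fat (BAT) burns fuel for heat, epididymal white fat (eWAT) is a store inside the abdomen, and inguinal white fat (iWAT) is a store under the skin. There was 1 library per depot, each from stromal-vascular cells of male NMRI mice of 4 to 5 weeks that were turned into fat cells in culture. The BAT library came from interscapular, cervical and axillary fat combined, the eWAT library from epididymal fat and the iWAT library from inguinal fat. All cultures received 30 nM insulin, 1 µM rosiglitazone, which activates the fat cell regulator PPARγ, and 10% newborn calf serum, and all were harvested at day 8. Only cultures with more than 50% differentiated cells were used, so other stromal cells could remain in each. Nuclei were treated with 120 U/ml DNase I. Replicates of a depot were not at hand, so there is no replicate error and no test between depots, and each difference given is between single libraries.

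Open regions are places where nucleosomes have given way to bound proteins, mostly at promoters, at enhancers and at boundaries of chromatin domains. In fat cells many enhancers are bound by PPARγ together with C/EBP proteins, which drive the genes of fat storage. Regulatory elements can gather around a gene that several of them control, as in locus control regions and super-enhancers, and they also crowd together where genes themselves are dense. Which of these settings the 9 chains have was not tested: the lists are in the mouse build mm9, for which no gene annotation or genome sequence was used here. For the same reason no chain is assigned to a gene, no sequence is shown, and the labelled cell types were not checked against marker genes.

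Common regions seldom stood in long rows. Of the common regions, 20881 (83.5%) had no other common region within 5 kb. A further 3758 regions formed 1879 chains of 2, and 333 regions formed 111 chains of 3. There were 8 chains of 4 regions, with 32 regions in all, and 1 chain of 5. No chain was longer.

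The dense chains lay on 8 of the 21 chromosomes with sites. Chromosome 18 had a pair of them, and chromosomes 1, 3, 6, 8, 9, 12 and X had 1 each. On chromosome X, which male cells carry in a single copy, the chain of 5 stood on a sparse background: X had 473 common regions, 2.95 per Mb between its first and last site. Chromosomes 11 and 19, the autosomes with the most common regions per Mb (13.4 each), had no dense chain. Chromosome 2, with 2013 common regions and 9 chains of 3, had none either.

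The chains spanned 6240 to 13576 bp, with a median of 10710 bp, and 91.0 kb together. The 28 gaps inside them ranged from 386 to 4799 bp, with a median of 3330 bp. Merged regions covered 8.10% of the widest chain, on chromosome 9, and 21.0% of the chain on chromosome 3. The shortest chain was the first on chromosome 18, at 6240 bp, followed by those on chromosome 8 (7022 bp) and chromosome 3 (7392 bp). The longest were on chromosome 9 (13576 bp), chromosome 6 (12478 bp) and chromosome X (12326 bp).

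The largest gaps just inside the limit were 4799 bp in the second chromosome 18 chain, 4736 bp in the chromosome 1 chain and 4714 bp in the chromosome X chain. Just outside it were 10 chains of 3 that had a further common region within 6 kb. The nearest such case, on chromosome 1 from 82147315 to 82156371, stood 5032 bp from its next common region. The next, on chromosome 15 from 50524553 to 50530134, was 5231 bp from its next common region, and its 3 regions had a mean percentile of 92.1, as high as in the strongest dense chains. From the dense chains to the nearest further common region it was 5502 bp on chromosome 1, 5919 bp on chromosome X and 8448 bp on chromosome 3, and up to 53591 bp for the second chromosome 18 chain.

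Most dense chains were not in the wide stretches with the most common regions. In windows of 100 kb, the highest count was 11 common regions, reached on chromosome 18 (55000001 to 55100000) and on chromosome 2 (125100001 to 125200000), and in both windows the longest chain had 2 regions. Of the 5 windows with the most common regions, 1 held a dense chain: the window on chromosome 3 from 96000001 to 96100000, with 10 common regions, of which 4 were members. The other dense chains lay in windows with 4 to 7 common regions. How many windows of the genome reach such counts is not given. In the window of the second chromosome 18 chain its 4 regions were the only common ones. Autosomes had 8.32 to 13.4 common regions per Mb between their first and last site, and X 2.95. Each window with a dense chain was thus richer than its chromosome as a whole, in part through the members themselves.

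The chain spans held 42 regions of any list. Of these 37 were the members, which all 3 lists share by the choice of members, none was held by exactly 2 lists, and 5 were held by a single list. The 5 additions were 3 iWAT sites, in the chains on chromosomes 1, 6 and 9, 1 eWAT site in the second chromosome 18 chain and 1 BAT site in the chromosome X chain. The other 4 chains had no further site of any list inside. The iWAT additions held 17.7, 15.8 and 28.6 normalized tags in the chains on chromosomes 1, 6 and 9. The eWAT site held 8.33 and the BAT site 11.1, on the scales of their own lists, which differ. Tag counts are not listed where no site was called, so a gap in a list is not evidence of closed chromatin. Each list also demanded a tag density at least 4 times that of the surroundings, and neighbouring open sites add to those surroundings.

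The strength of a region was read from the authors' normalized tag count, which is scaled to an unstated library total. The values lie on steps of 0.857 in BAT, 0.595 in eWAT and 0.985 in iWAT, each taken as the worth of 1 tag. Levels were therefore compared between depots by rank: the percentile of a region among the 25009 common regions of the same list, with 100 the highest and ties averaged. In every depot the median of the chain members was above that of other common regions. Their median percentile was 83.0 in BAT, against 52.0 for common regions outside dense chains. In eWAT it was 77.8 for members against 48.0 for the others, and in iWAT 76.3 against 51.1. The quartiles of members ran from 52.0 to 90.4 in BAT, 52.0 to 88.5 in eWAT and 61.4 to 86.4 in iWAT, so they overlapped those of the other common regions. In normalized tags the medians were 25.7 for members and 15.4 for others in BAT, 18.4 and 12.5 in eWAT, and 28.6 and 19.7 in iWAT. Members lay above the median of the others in 27 of 37 cases in BAT, 28 in eWAT and 29 in iWAT.

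The chromosome X chain carried part of this. Without it the gap between the medians was 25.0 points in BAT, 16.1 in eWAT and 20.9 in iWAT, in place of 31.0, 29.8 and 25.2; with all ranks taken over autosomes it was 25.0, 12.1 and 21.0. In the top 10% of common regions stood 10 members in BAT (27.0%, where all common regions give 10.1%), 9 in eWAT (24.3%, background 10.1%) and 5 in iWAT (13.5%, background 10.3%). In the top 10% of all 3 depots at once were 3 members (8.11%, background 5.24%), of which 2 were in the chromosome 8 chain and 1 in the chromosome X chain. Below the 50th percentile in all 3 depots were 3 members as well (8.11%, background 30.9%), of which 2 were in the chromosome 12 chain and 1 in the chromosome 6 chain.

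Rank went up with the number of common regions in a chain. In BAT the median percentile was 47.6 for regions with no neighbour, 56.0 in chains of 2, 63.2 in chains of 3, 77.0 in chains of 4 and 94.6 in the chain of 5. In eWAT the same series was 48.0, 55.8, 59.5, 64.1 and 94.2, and in iWAT 47.3, 54.7, 61.4, 72.0 and 87.4. The last value in each series is 1 chain and the one before it 8 chains, so the step between them compares a single locus with 8. The fold of listed sites over their surroundings, which had to reach 4, also moved with chain size, as described next, and its part in these ranks was not tested.

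**Figure D1:**
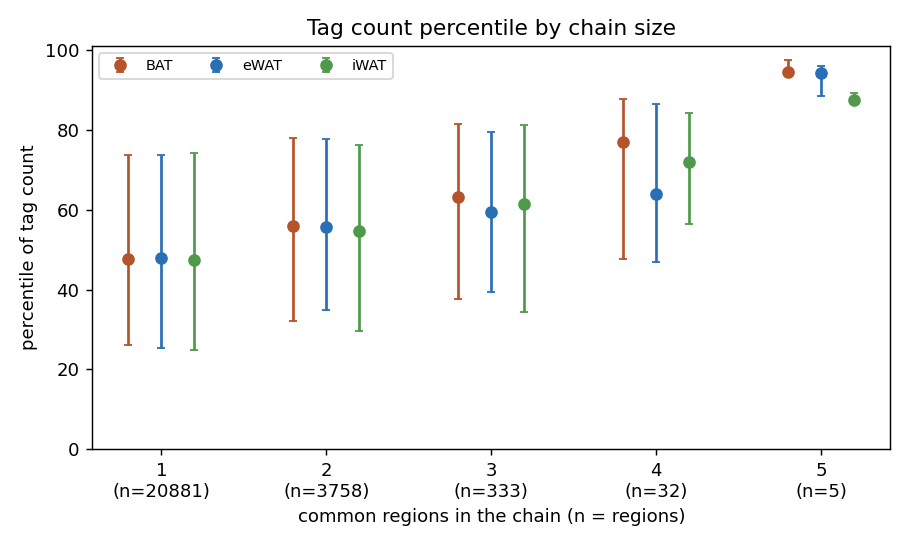
Median percentile of the normalized tag count among common regions (y axis, points) by the number of common regions in the chain (x axis, with the number of regions), in BAT, eWAT and iWAT; bars span the quartiles. The medians go up with chain size in all 3 depots, in BAT from 47.6 for single regions to 94.6 in the chain of 5, while the quartiles of neighbouring sizes overlap up to chains of 4.

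Members held more tags than other common regions but stood less far above their immediate surroundings. By the choice of members they have common regions within 5 kb, and neighbouring open sites add to the surroundings. How much of the lower fold follows from that choice was not tested. Their median fold over the surroundings, as the authors' lists give it, was 6.75 in BAT against 10.5 for the others, 6.18 against 8.59 in eWAT and 7.51 against 11.7 in iWAT. Below the median of the others lay 33 of 37 members in BAT, 32 in eWAT and 33 in iWAT. By chain size the BAT median went from 11.2 for single regions to 7.76, 6.77 and 6.80 in chains of 2, 3 and 4, and was 6.19 in the chain of 5. In eWAT it was 9.09 for single regions, 6.57, 5.80 and 6.14 in chains of 2, 3 and 4, and 8.00 in the chain of 5. The iWAT series was 12.6, 8.16, 7.02, 7.45 and 9.41. In eWAT and iWAT the median fold was therefore lowest in chains of 3, and in BAT it was lowest in the chain of 5. The quartiles of chains of 3 and 4 overlapped in each depot, and the chain of 5 is 1 locus. The first region of the chromosome X chain was an exception, at 18.3 in BAT, 19.7 in eWAT and 19.4 in iWAT. Its nearest common neighbour was 4714 bp away. The lowest member values were 4.10 in BAT, 4.08 in eWAT and 4.10 in iWAT, just above the minimum of 4 in each list.

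**Figure D2:**
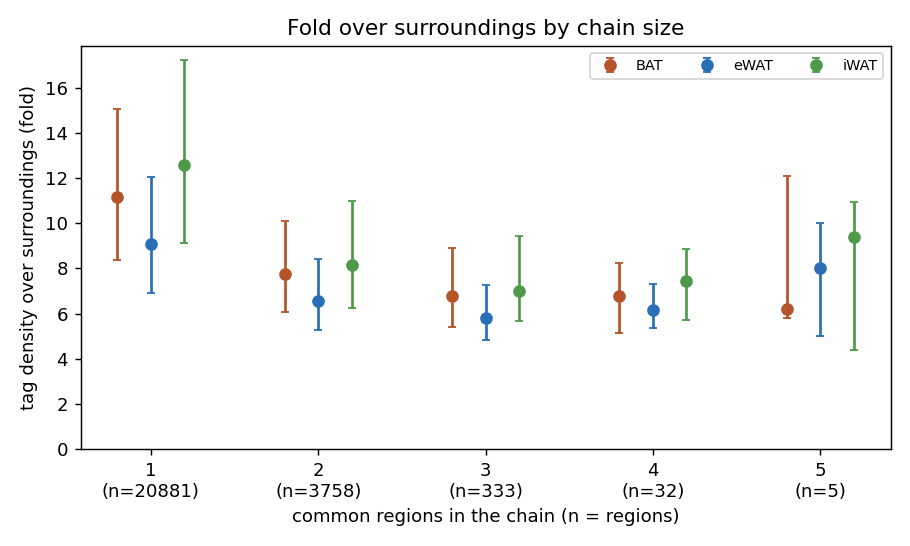
Fold of tag density over the surroundings (y axis) by the number of common regions in the chain (x axis, with the number of regions), in BAT, eWAT and iWAT; points are medians and bars span the quartiles. The fold is highest for single regions, with medians of 11.2, 9.09 and 12.6 in BAT, eWAT and iWAT, and lower in every class of chain. Neighbouring open sites add to the surroundings, so the fold is not independent of chain size.

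Other properties in the lists were compared as well. The focus ratio, the share of tags centred at the site, had a median of 0.684 in members against 0.706 in the others in BAT, 0.683 against 0.688 in eWAT and 0.703 against 0.705 in iWAT. The clonal fold was lower in members, at 0.94 against 0.96 in BAT, 0.93 against 0.96 in eWAT and 0.94 against 0.96 in iWAT. Its quartiles in the others were 0.95 to 0.97 in BAT and 0.94 to 0.97 in eWAT and iWAT. Under the others' median were 24 members in BAT, 28 in eWAT and 29 in iWAT, and over it 5, 3 and 4. The rest equalled it, as clonal folds are rounded and often tie. The share of all common regions under that median is not given, so these counts are descriptions. How far this goes with their higher tag counts was not tested. The lowest clonal folds were in the strongest regions of the chromosome 8 and X chains, at 0.85 in all 3 depots on chromosome 8 and at 0.88, 0.83 and 0.84 in BAT, eWAT and iWAT on chromosome X.

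The 9 chains differed widely in strength, and they are described here in order from the strongest. The chain on chromosome X, from 72901249 to 72913575, had a mean percentile of 92.1 over its 5 regions and the 3 depots. Its first region, at 72901249 to 72901475, held 25.7 normalized tags in BAT, 20.8 in eWAT and 36.4 in iWAT. The second, at 72906189 to 72906411, held 37.7, 23.2 and 38.4 normalized tags in BAT, eWAT and iWAT. Both stood in a high range in each library, at percentiles of 83.0 to 94.6. The third region, at 72910160 to 72910384, held 46.3, 30.9 and 36.4 normalized tags in BAT, eWAT and iWAT, and the fourth, at 72911763 to 72911986, held 37.7, 28.0 and 36.4. The fifth, at 72913067 to 72913575, was the strongest in every depot, with 54.0 normalized tags in BAT, 51.1 in eWAT and 76.8 in iWAT, at percentiles of 98.7, 99.7 and 99.5. No region of this chain differed by more than 10.04 points between any depots, and the lowest percentile was 83.0.

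Nearly as strong was the chromosome 8 chain, from 37877941 to 37884963, with a mean percentile of 91.8. It consists of 2 close groups, with gaps of 823 and 542 bp inside them and 4505 bp between. Its first region, at 37877941 to 37878238, held 26.6 normalized tags in BAT, 22.0 in eWAT and 32.5 in iWAT. The second, at 37879061 to 37879319, held 36.0, 30.9 and 54.2 in BAT, eWAT and iWAT. The third, at 37883824 to 37884054, held 64.2 normalized tags in BAT, 45.2 in eWAT and 71.9 in iWAT, the highest of all members in BAT. It ranked at the percentiles 99.5, 99.4 and 99.3, so its order among common regions was almost identical in the 3 libraries. The last, at 37884596 to 37884963, held 28.3, 26.2 and 33.5 in BAT, eWAT and iWAT. The largest difference between depots in this chain was 8.59 points, eWAT over iWAT in the last region.

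The chain on chromosome 3, from 96066315 to 96073707, had a mean percentile of 80.6. Like the chromosome 8 chain it is made of 2 close groups, with gaps of 530 and 687 bp inside them and 4623 bp between. Its first region, at 96066315 to 96066613, held 14.6 normalized tags in BAT, 19.0 in eWAT and 22.7 in iWAT. It stood at percentile 47.6 in BAT, below 79.6 in eWAT and 61.4 in iWAT. The second, at 96067143 to 96067591, held 29.1, 22.6 and 34.5 normalized tags in BAT, eWAT and iWAT, within 2.55 points of each other. The third, at 96072214 to 96072488, held 27.4, 29.1 and 27.6, and the fourth, at 96073175 to 96073707, held 30.0, 25.6 and 32.5. All 4 regions ranked higher in eWAT than in iWAT, by 2.38 to 20.9 points. The strongest region was the fourth in BAT, the third in eWAT and the second in iWAT.

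On chromosome 9, the chain from 121923445 to 121937021 had a mean percentile of 73.4 and regions 3593 to 4572 bp apart, with no close group. Its first region, at 121923445 to 121923749, held 16.3 normalized tags in BAT, 10.7 in eWAT and 23.6 in iWAT. The second, at 121928060 to 121928308, held 41.1, 25.0 and 35.5 in BAT, eWAT and iWAT and was the strongest in BAT and eWAT. The third, at 121931901 to 121932181, held 29.1, 18.4 and 35.5, so that it tied with the second in iWAT. The fourth, at 121936753 to 121937021, held 37.7 normalized tags in BAT, 11.9 in eWAT and 22.7 in iWAT. This last region ranked at percentile 94.6 in BAT, against 43.9 in eWAT and 61.4 in iWAT. BAT ranked above eWAT in all 4 regions of the chain, by 21.1, 4.95, 9.94 and 50.7 points in order along the chain.

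The first chain on chromosome 18, from 35019085 to 35025325, had a mean percentile of 66.3. It holds 3 regions with gaps of 450 and 443 bp and a last one 4240 bp further on. Its first region, at 35019085 to 35019346, held 18.8 normalized tags in BAT, 13.1 in eWAT and 32.5 in iWAT. The second, at 35019796 to 35020040, held 22.3, 14.3 and 41.4, and the third, at 35020483 to 35020753, held 27.4, 19.6 and 34.5 in BAT, eWAT and iWAT. In that last region, at 35024993 to 35025325, there were 10.3 normalized tags in BAT, 10.7 in eWAT and 22.7 in iWAT. eWAT ranked below iWAT in all 4, with eWAT minus iWAT at -30.7, -32.0, -4.07 and -26.5 points in order along the chain. BAT minus iWAT was -16.5, -15.5, 0.354 and -41.7 points in the same order.

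Chromosome 1 held a chain from 172623577 to 172633345 that had a mean percentile of 63.1. Its regions held 23.1, 14.6, 28.3 and 17.1 normalized tags in BAT, in order along the chain. In eWAT they held 13.1, 11.3, 22.0 and 14.3, and in iWAT 29.6, 21.7, 26.6 and 16.7. The third, at 172629777 to 172630005, was the strongest in BAT and eWAT, and the first, at 172623577 to 172623909, in iWAT. In order along the chain eWAT minus iWAT was -26.1, -18.7, 14.4 and 20.6 points, so eWAT was the lower in the first part of the chain and the higher in the rest.

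On chromosome 6 the chain from 59127973 to 59140451 had a mean percentile of 59.0 and held the member with the lowest rank in BAT and in iWAT. Its regions held 23.1, 31.7, 17.1 and 9.42 normalized tags in BAT, in order along the chain. In eWAT they held 18.4, 19.0, 16.1 and 12.5, and in iWAT 24.6, 19.7, 26.6 and 8.87. The last, at 59139965 to 59140451, stood at percentile 13.2 in BAT, 48.0 in eWAT and 2.98 in iWAT, which is 11, 21 and 9 tags. The second, at 59130222 to 59130508, ranked at 90.4 in BAT and 79.6 in eWAT but 51.1 in iWAT. The third, at 59135220 to 59135488, was the strongest of the chain in iWAT.

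The second chain on chromosome 18, from 58748280 to 58759730, had a mean percentile of 49.4. Its regions held 21.4, 14.6, 12.8 and 15.4 normalized tags in BAT, in order along the chain. In eWAT they held 9.52, 13.7, 14.3 and 13.7, and in iWAT 15.8, 17.7, 23.6 and 17.7. The first, at 58748280 to 58748719, was the strongest of the chain in BAT, at percentile 73.8, and the weakest in eWAT and iWAT, at 25.3 and 34.3. The third, at 58754363 to 58754782, was the weakest in BAT, at 37.6, and the strongest in eWAT and iWAT, at 59.5 and 64.2.

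The weakest chain was that on chromosome 12, from 33705101 to 33715811, with a mean percentile of 49.0. Its regions held 11.1, 12.8, 14.6 and 36.8 normalized tags in BAT, in order along the chain. In eWAT they held 8.33, 9.52, 11.9 and 19.6, and in iWAT 13.8, 13.8, 28.6 and 40.4. The last region, at 33715559 to 33715811, was the strongest in every depot, at percentiles of 94.1 in BAT, 81.1 in eWAT and 90.8 in iWAT. BAT ranked above eWAT in all 4 regions, by 3.78 to 13.0 points.

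**Figure D3:**
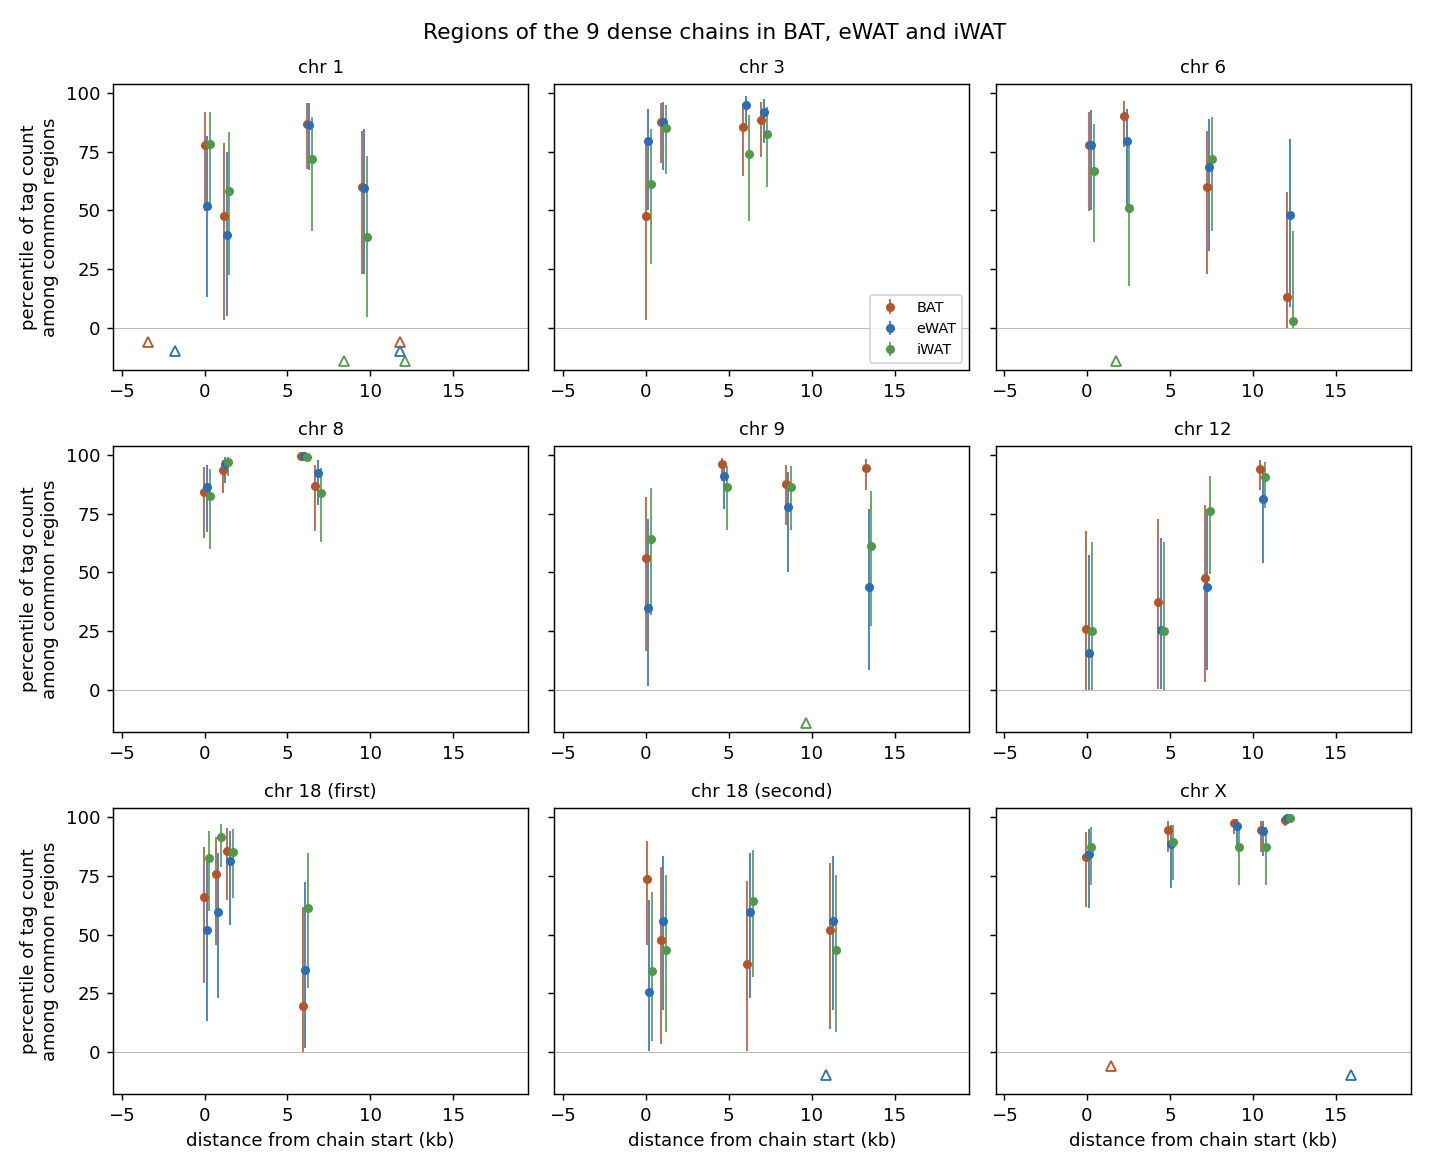
The 9 dense chains, each with its own panel: distance from the start of the chain in kb (x axis) and percentile of the normalized tag count among common regions (y axis), for BAT, eWAT and iWAT, drawn slightly apart. Bars are 95% counting intervals and open triangles below 0 mark sites held by 1 or 2 lists within 5 kb of the chain; the bars of 1 region, the last on chromosome 9, keep BAT apart from eWAT and iWAT.

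A single region led its chain in all 3 depots in 3 of the 9 chains, those on chromosomes 8, 12 and X. The share for shorter chains is not given, so this count is a description. On chromosome 9 the leader in BAT and eWAT was tied in iWAT. Neighbouring members were also close in strength. Between consecutive regions of a dense chain the mean percentile over the depots differed by a median of 7.77 points (28 neighbour pairs). For other neighbours with a gap of 5 kb or less the median was 15.2 points (2101 pairs), for gaps over 5 and up to 50 kb it was 24.7 points (12675 pairs), and beyond 50 kb 25.2 points (10184 pairs). Neighbours are not independent and strength was not held equal, so these are descriptions. The direction of a depot difference was shared less regularly: neighbours inside dense chains pointed the same way in 19 of 28 pairs for BAT against eWAT (67.9%), 13 for BAT against iWAT (46.4%) and 15 for eWAT against iWAT (53.6%). For other neighbours within 5 kb these shares were 57.3%, 57.9% and 53.2%.

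Depot differences in rank were then counted, with a difference of more than 20 points taken as large. Between BAT and eWAT, 7 of 37 members differed by that much (18.9%), where 35.3% of all common regions did. BAT was the higher in 4 members (10.8%, background 17.9%) and the lower in 3 (8.11%, background 17.4%). Between BAT and iWAT, 7 members differed (18.9%, background 34.7%), with BAT higher in 4 (10.8%, background 17.5%) and lower in 3 (8.11%, background 17.2%). Between eWAT and iWAT, 10 members differed (27.0%, background 30.4%), with eWAT higher in 4 (10.8%, background 15.1%) and lower in 6 (16.2%, background 15.3%). At least 1 such difference was found in 14 members (37.8%, background 56.2%), spread over 7 of the 9 chains. The chains on chromosomes 8 and X had none. The 3 counts share libraries and are not independent of each other, nor are the neighbouring members of a chain. These shares also moved with the rule. With chains joined over gaps of 10 kb they were 31.2% for BAT and eWAT and 30.2% for BAT and iWAT, against the same backgrounds, and with chains of 3 or more 29.7% for BAT and eWAT. For eWAT and iWAT the members' share was above the background when sites had to overlap by 50% of the smaller (37.5% against 29.7%), with a common minimum score (35.1% against 32.4%) and on autosomes alone (31.2% against 30.5%).

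Strength moved with these counts, and its part in them was not tested. Among regions with a mean percentile over 75, none of 18 members differed by more than 20 points between BAT and eWAT, against 8.38% of 5312 other common regions. The same values were 0 of 18 against 8.45% for BAT and iWAT, and 2 of 18 (11.1%) against 6.27% for eWAT and iWAT. The 18 include every region of the chromosome 8 and X chains, and neighbouring members are not independent. Among weaker regions, 7 of 19 members (36.8%) differed between BAT and eWAT, against 42.6% of 19660 others. For BAT and iWAT this was 7 of 19 (36.8%) against 41.8%, and for eWAT and iWAT 8 of 19 (42.1%) against 37.0%.

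No depot stood out over all members. The median difference was 0.37 points for BAT minus eWAT, 2.55 points for BAT minus iWAT and 0.16 points for eWAT minus iWAT, beside -0.01, -0.08 and 0.30 points in the other common regions. BAT ranked above eWAT in 23 of 37 members, BAT above iWAT in 24 and eWAT above iWAT in 19. Shares of all common regions pointing the same way are not given, and neighbouring members are not independent, so these counts are descriptions. The middle 50% of members ran from -3.18 to 10.4 points for BAT minus eWAT, against -13.8 to 12.9 in the other common regions. For BAT minus iWAT it ran from -4.45 to 10.04 points against -13.5 to 13.1, and for eWAT minus iWAT from -9.21 to 9.18 against -12.1 to 12.6.

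The largest differences of BAT over eWAT were 50.7 points in the last region on chromosome 9, 48.5 in the first region of the second chromosome 18 chain and 26.0 in the first region on chromosome 1. With BAT below eWAT they were -34.9 points in the last region on chromosome 6, -31.9 in the first on chromosome 3 and -21.8 in the third of the second chromosome 18 chain. Against iWAT, BAT was higher by 39.6 points in the first region of the second chromosome 18 chain, by 39.3 in the second on chromosome 6 and by 33.2 in the last on chromosome 9. BAT minus iWAT was lowest, at -41.7 points, in the last region of the first chromosome 18 chain, followed by -28.7 in the third on chromosome 12 and -26.6 in the third of the second chromosome 18 chain. Of eWAT over iWAT the largest were 45.02 and 28.4 points, in the last and the second region on chromosome 6, and 20.9 in the third on chromosome 3. With eWAT below iWAT they were -32.4 points in the third region on chromosome 12, and -32.0 and -30.7 in the second and first of the first chromosome 18 chain.

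**Figure D4:**
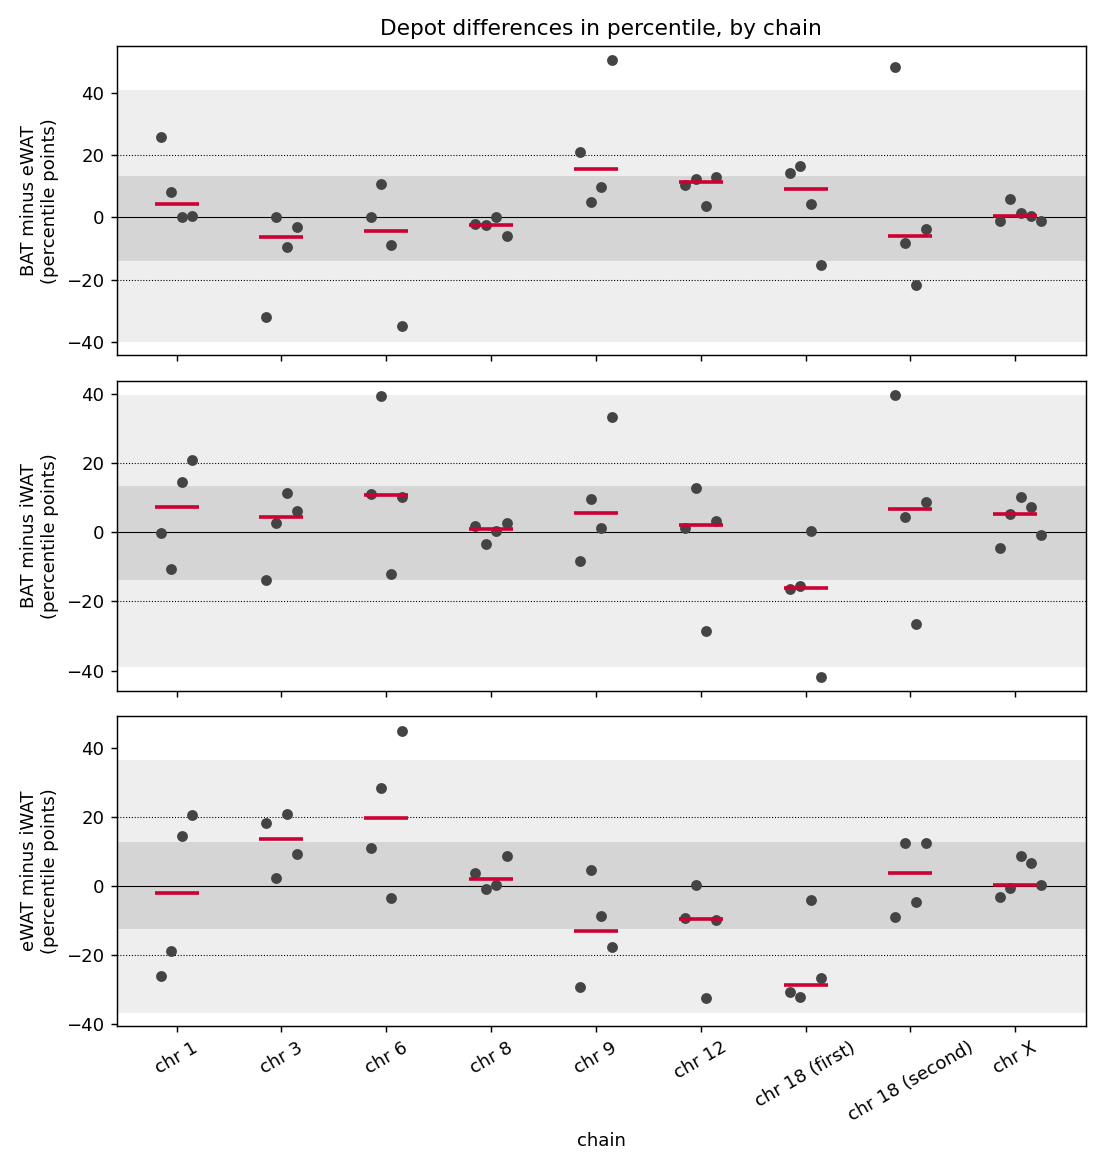
Percentile difference between depots (y axis, points; BAT minus eWAT, BAT minus iWAT and eWAT minus iWAT from top to bottom) for each region of the 9 chains (x axis), with each chain's median as a bar. The grey bands hold the middle 50% and 90% of common regions outside dense chains and dotted lines mark 20 points; the chromosome 8 and X chains stay within 10.04 points in every panel.

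These differences were set against counting error. Members held 11 to 75 tags in BAT, with a median of 30, 14 to 86 in eWAT, with a median of 31, and 9 to 78 in iWAT, with a median of 29. Reading the exact 95% Poisson interval of a tag number as percentiles gave a median width of 32.2 points in BAT, 43.3 in eWAT and 41.1 in iWAT for members, against 58.0, 57.7 and 52.9 for other common regions. Such intervals cover counting error only. They did not overlap in 1 member, the last region on chromosome 9, where BAT ran from 85.003 to 98.3, against 8.69 to 76.8 in eWAT and 27.4 to 84.5 in iWAT. Thus 1 of 37 members (2.70%) was separated with BAT above eWAT, where 1.03% of all common regions were, and 1 with BAT above iWAT (background 0.892%). No member was separated with BAT below eWAT (background 0.616%), BAT below iWAT (0.668%), eWAT above iWAT (0.464%) or eWAT below iWAT (0.456%). Intervals that overlap can still belong to a difference beyond counting error, so the ratio itself was also computed.

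For each region, its share of the tags in all common regions of the library was divided between depots, with the exact 95% interval of that ratio; this was added after the values were seen. The interval left out 1 in 5 of 37 members, each in another chain, among 111 ratios with no adjustment for their number. For this combined count no share over all common regions was computed, so it is not a result about the members. Backgrounds for each comparison and direction are given below. The last region on chromosome 9 had ratios of 2.56 for BAT over eWAT (1.48 to 4.58) and 2.09 for BAT over iWAT (1.24 to 3.63). The second region on chromosome 6 had 2.02 for BAT over iWAT (1.14 to 3.67), and the third region on chromosome X 1.59 (1.03 to 2.49). For eWAT over iWAT the ratio was 1.65 in the third region on chromosome 3 (1.01 to 2.72) and 0.537 in the second region of the first chromosome 18 chain (0.311 to 0.908). With the interval above 1 there was thus 1 member for BAT over eWAT (2.70%, background 3.76%), 3 for BAT over iWAT (8.11%, background 3.38%) and 1 for eWAT over iWAT (2.70%, background 2.26%). Below 1 there was 1 member for eWAT over iWAT (2.70%, background 2.60%), and none for BAT over eWAT (background 2.93%) or BAT over iWAT (3.39%). In the other 32 members every interval held 1, which does not show that the depots were alike there.

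Summing the tags over a chain narrows the error. Each chain's sum was expressed as its share of the tags in all common regions, which were 535022 tags in BAT, 621834 in eWAT and 584399 in iWAT, and the shares were divided between depots. The chromosome 9 chain took 2.71 per 10000 tags in BAT (145 tags), 1.79 in eWAT (111 tags) and 2.04 in iWAT (119 tags). Its ratio was 1.52 for BAT over eWAT (exact 95% interval 1.18 to 1.96) and 1.33 for BAT over iWAT (1.04 to 1.71). These rest on its last region: without it the ratios were 1.29 (0.962 to 1.73) and 1.15 (0.860 to 1.54), and both intervals held 1. Without its second region the ratio for BAT over iWAT was 1.28 (0.942 to 1.73). The first chromosome 18 chain took 1.72 per 10000 in BAT, 1.56 in eWAT and 2.28 in iWAT, a ratio of 0.685 for eWAT over iWAT (0.522 to 0.897) and 0.756 for BAT over iWAT (0.573 to 0.993). The chromosome 3 chain took 2.21 per 10000 in BAT, 2.61 in eWAT and 2.04 in iWAT, a ratio of 1.28 for eWAT over iWAT (1.004 to 1.63). The interval for the first chromosome 18 chain held 1 for eWAT over iWAT without its second region (0.754, 0.546 to 1.04), and for BAT over iWAT without its first, second or last region (ratios of 0.765, 0.792 and 0.794). That for the chromosome 3 chain held 1 when any region but its second was left out (ratios of 1.17 to 1.30). In these 3 chains an interval left out 1; there were 5 such intervals among 27, each at 95% with no adjustment for their number, and they compare libraries, not depots as such.

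In the other 6 chains all intervals held 1 when every region was kept. The chromosome 8 chain had ratios of 1.01 in all 3 comparisons, with intervals of 0.820 to 1.23 for BAT over eWAT, 0.824 to 1.25 for BAT over iWAT and 0.825 to 1.23 for eWAT over iWAT. The chromosome X chain, which held the most tags (235 in BAT, 259 in eWAT and 228 in iWAT), had 1.05 for BAT over eWAT (0.880 to 1.26), 1.13 for BAT over iWAT (0.934 to 1.36) and 1.07 for eWAT over iWAT (0.890 to 1.28). The chromosome 6 chain reached 1.28 for BAT over iWAT (0.942 to 1.74) and 1.29 for eWAT over iWAT (0.958 to 1.74). The chromosome 12 chain, in which BAT ranked above eWAT in every region, had 1.23 for BAT over eWAT (0.903 to 1.68). The second chromosome 18 chain, whose single regions differed by up to 48.5 points between depots, had summed ratios of 1.01, 1.08 and 1.06 for BAT over eWAT, BAT over iWAT and eWAT over iWAT.

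**Figure D5:**
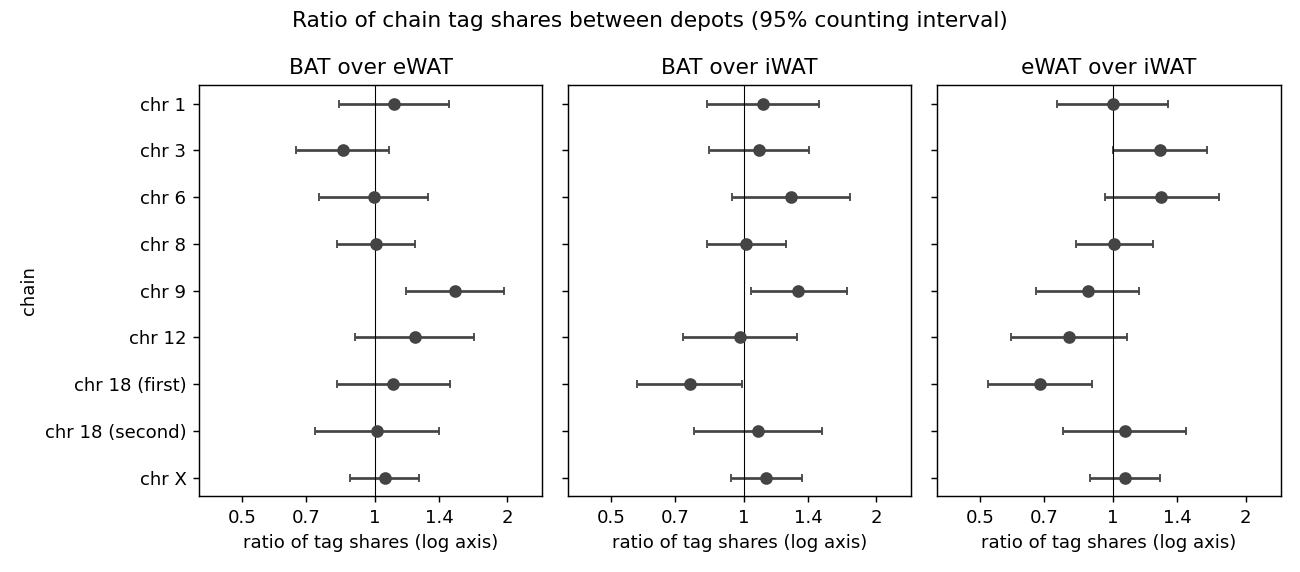
Ratio of each chain's share of common-region tags between depots (x axis, log scale), for BAT over eWAT, BAT over iWAT and eWAT over iWAT, with exact 95% counting intervals, by chain (y axis). The chromosome 9 chain lies at 1.52 and 1.33 for BAT over eWAT and over iWAT, the first chromosome 18 chain at 0.685 for eWAT over iWAT, and the chromosome 8 chain at 1.01 throughout; without its last region the chromosome 9 chain is at 1.29 and 1.15.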

How the data were processed

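DNase-seq libraries of BAT, eWAT and iWAT cultures, 1 each, were analysed from 1 deposited list of sites per depot. STAR, HOMER and mm9 are named in the submitters' processing notes, with no role or version. Per the file headers, each deposited site has a normalized tag count (a signal), a focus ratio (a fraction), a findPeaks score, a clonal fold, and a fold (ratio) over the local surroundings, for which the authors also give a p-value. The lists held 48308 sites in BAT, 60974 in eWAT and 63214 in iWAT, with median widths of 222, 220 and 222 bp. All sites had a fold of at least 4 in the authors' values and a p-value of at most 9.98e-05.

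Sites that overlapped or touched were merged, and chains and percentiles were computed as the report states; a region with several sites of a list took the highest. Tags were taken as multiples of each library's step, which held for 99.9%, 99.998% and 99.5% of values in BAT, eWAT and iWAT (tolerance 0.05, or 0.005 for values below 10). No test was made, with 1 library per depot. The naming rule covered the longest, shortest, strongest and weakest chains and the largest differences; with 9 chains, all are described. The members and rules were chosen with earlier results of these data known. The chaining and ranking were tested on simulated data. The simulated depot shifts were large and free of counting noise, so this checked the code and not rank differences at the depth of these libraries. Python 3.11.15, numpy 2.4.6, pandas 2.3.3, scipy 1.17.1 and matplotlib 3.10.9 were used.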

Additional observations from a re-analysis of the deposited data

How the results depend on the processing

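The number of members rests on the rule. In place of 37 regions in 9 chains there were none with a gap of 2 kb, with chains of 6 or more, or with sites at least 6 times above their surroundings (0 regions and 0 chains each). There were 768 regions in 176 chains with a gap of 10 kb, 370 in 120 with chains of 3 or more, 16 in 4 when sites had to overlap by 50% of the smaller, and 95 in 23 when sites within 200 bp were merged. Lists of equal length, autosomes only and a common minimum score (8.87 normalized tags, chosen after seeing the data) gave 33, 32 and 37 regions.

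Members ranked above the other common regions in every depot under all alternatives that gave members. The median span moved to 18659 bp with a gap of 10 kb and to 6186.5 bp with chains of 3 or more, where the excess in iWAT was 7.11 and 10.3 points; with the findPeaks score ranked the excess in BAT was 36.2 points. With a gap of 10 kb, chains of 3 or more, a 50% overlap and autosomes only, the excess in eWAT was 11.5, 11.5, 13.6 and 12.1 points in place of 29.8, and with the first 2 of these it was 12.2 and 15.6 in BAT in place of 31.0; with sites within 200 bp merged it was 18.5, 17.9 and 17.1 points in BAT, eWAT and iWAT, and with percentiles over the whole list 23.4, 18.6 and 15.8. Leaving out each chain in turn, also chosen after seeing the data, gave an excess of 25.0 to 33.6 points in BAT, 16.1 to 31.6 in eWAT and 20.9 to 31.6 in iWAT. With 10 points as the limit, 37.8%, 48.6% and 45.9% of members differed for BAT and eWAT, BAT and iWAT, and eWAT and iWAT (all common regions 59.4%, 59.5% and 55%). For eWAT and iWAT, 30 points gave 10.8% (all common regions 15.7%), and percentiles over the whole list, chosen after seeing the data, gave 8.11% (27.9%). At 20 points, the share for BAT and eWAT was 31.2% with a gap of 10 kb and 29.7% with chains of 3 or more in place of 18.9%, and that for BAT and iWAT 30.2% with a gap of 10 kb; for eWAT and iWAT members exceeded the background with a 50% overlap, a common minimum score and autosomes only, as given above. Leaving out each region of a chain in turn, chosen after seeing the data, left each of the 5 chain ratios on its side of 1, and each interval held 1 in at least 1 case. In the chromosome 6 and X chains some intervals that held 1 left it out in this way, as given above. The cause of these shifts was not tested beyond the change of setting. No paired analysis was possible because each depot has 1 library.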
